A study of Mus musculus with 42 samples.

Results

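Liver plasma protein genes are described here by where they lie relative to lamina-associated domains (LADs) in mouse liver. The 40 members were taken from a list of genes whose products hepatocytes secrete into blood, and all 40 were found among the 21938 protein-coding genes of the annotation. They fall into 5 roles: 9 carriers and transporters, 11 apolipoproteins, 11 coagulation, kinin and fibrinolysis factors, 2 complement genes, and 7 genes for fetuins, Ambp and inter-alpha-trypsin inhibitor heavy chains. Start sites within 500 kb of each other were taken as 1 locus, which gave 26 loci. A LAD is an interval called from chromatin immunoprecipitation of lamin B1 (LMNB1) followed by sequencing, and the position of a gene is its transcription start site in mm10.

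The study asked whether LMNB1 contacts with chromatin change over the circadian cycle and when the clock is entrained. LADs were mapped in liver pieces of 14 wild-type C57Bl/6 mice, 2 per group and 1 library per mouse, and all mice were kept under alternating light and dark. Non-synchronized (NS) mice were killed at noon on the day before food was withdrawn. The other 12 mice went without chow for 24 h, had free access to it from CT0 (lights on), and were killed at CT0, CT6, CT12, CT18, CT24 or CT30, where CT is circadian time in h. Fasting, refeeding and time thus go together in the CT groups, and NS is the only group that was never fasted. The labels call these mice female in some fields and male in another. The mice are of 1 strain, no age is used here, and the pieces were whole liver tissue, so cells other than hepatocytes contributed to each library. Expression files were not analysed here, so the tissue could not be checked by marker transcripts.

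The nuclear lamina is a meshwork of lamins under the inner nuclear membrane. Chromatin that touches it forms LADs, which are long, poor in genes and mostly repressed, and they often hold clusters of olfactory and vomeronasal receptor genes that are silent outside sensory epithelia. Plasma protein genes are at the other extreme: hepatocytes transcribe albumin, apolipoproteins, fibrinogen and complement genes at very high rates, under factors such as HNF1, HNF4, FOXA and C/EBP. Several arose by duplication and still sit side by side, such as albumin with alpha-fetoprotein and the apolipoprotein clusters.

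The promoters of 4 members are shown, because the distances below are measured from these start sites. C3, Hpx and Apoe stand for the loci with the shortest median distances. Gc was taken from the 4 members with the smallest p of the F test between the CTs because its window holds the HNF1 letters. Its HNF1 match was therefore fixed by the choice. Each is the 300-base RefSeq window on GRCm38.p6, from 250 bases before to 50 bases after the RefSeq start, read on the gene's own strand. C3 lies at chr17:57228087-57228386, Hpx at chr7:105600067-105600366, Apoe at chr7:19699139-19699438 and Gc at chr5:89457849-89458148, all on the minus strand. Capitals mark matches to the motifs searched on both strands, which were GTTAATNAT (HNF1), TTNNGCAA (C/EBP), CAAAGTCCA (HNF4) and TGTTTAC (FOXA). The TATA box, TATAAA, was searched in the same way.
C3: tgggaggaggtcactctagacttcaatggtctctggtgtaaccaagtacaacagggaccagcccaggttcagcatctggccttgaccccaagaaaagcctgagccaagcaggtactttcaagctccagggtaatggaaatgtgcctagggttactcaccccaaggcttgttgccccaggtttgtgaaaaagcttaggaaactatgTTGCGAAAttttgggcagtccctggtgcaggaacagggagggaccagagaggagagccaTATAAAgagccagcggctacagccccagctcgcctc
Hpx: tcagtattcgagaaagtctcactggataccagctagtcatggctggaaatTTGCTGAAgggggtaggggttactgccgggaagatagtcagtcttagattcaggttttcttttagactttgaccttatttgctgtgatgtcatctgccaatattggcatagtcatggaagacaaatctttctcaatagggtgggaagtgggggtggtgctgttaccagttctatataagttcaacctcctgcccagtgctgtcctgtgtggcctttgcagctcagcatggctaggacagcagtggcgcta
Apoe: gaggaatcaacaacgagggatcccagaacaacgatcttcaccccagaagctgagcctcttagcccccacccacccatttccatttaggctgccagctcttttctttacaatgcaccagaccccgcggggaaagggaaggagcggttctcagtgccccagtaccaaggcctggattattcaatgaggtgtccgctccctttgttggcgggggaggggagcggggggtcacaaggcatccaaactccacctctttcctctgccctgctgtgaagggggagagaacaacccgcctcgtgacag
Gc: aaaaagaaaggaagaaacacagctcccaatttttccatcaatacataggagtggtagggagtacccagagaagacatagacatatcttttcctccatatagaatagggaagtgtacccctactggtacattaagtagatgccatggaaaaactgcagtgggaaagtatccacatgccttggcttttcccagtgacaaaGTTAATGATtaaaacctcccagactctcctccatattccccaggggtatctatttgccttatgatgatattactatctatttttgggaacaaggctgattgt
The C3 window held a C/EBP match at -45 to -38 and a TATA box match at 14 to 19 relative to the annotated start. Hpx held a C/EBP match at -200 to -193, Gc held an HNF1 match at -52 to -44, and the Apoe window held none of these letters.

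RefSeq windows were matched for 33 of the 40 members. The HNF1 letters were present in 5 of them (15.2%, in Cp, Afp, Alb, Gc and Fga) against 0.8% of the windows of all 27025 genes with a RefSeq promoter. For all genes the window listed first was used, and for a member the window nearest its start site. The C/EBP letters were present in 11 member windows (33.3%) against 10.8% of all, the FOXA letters in 4 (12.1%) against 3.5%, and the TATA box in 8 (24.2%) against 14.2%. The HNF4 letters were in 0 of the 33 and in 0.5% of all windows. A match is a description of the letters, and the windows of Alb and Afp, or of Fga and Fgb, belong to neighbouring duplicated genes. The RefSeq start of Apoh lies 51943 bases from the start site used for its distance, and those of Ahsg, Itih2 and Ambp lie 738, 713 and 627 bases away.

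None of the plasma protein genes touched a LAD. In 0 of 14 libraries did any of the 40 start sites, or any of the 40 gene bodies, lie inside a LAD. Over all protein-coding genes, 3653 (16.7%) had their start site in a LAD in at least 1 library and 182 (0.83%) in all 14, and in single libraries the share ranged from 4.02% to 10.42%. The count remained 0 when the LADs of the 2 mice of a group were joined, and when only the base pairs covered in both mice were kept. The closest approach of any member in any library was 129.9 kb, for C3 at CT24.

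Being outside LADs did not place the members far from them. The median over members of their median distance to the nearest LAD was 5.16 Mb, against 3.93 Mb for all protein-coding genes and 4.92 Mb for the 18285 genes that were in no LAD of any library. With the LADs of both mice of a group joined, the values were 3.06 Mb for the members and 2.92 Mb for all genes. With each locus of the members counted once, the median was 3.19 Mb over 26 loci. All genes were not collapsed into loci, so this value has no like value beside it. Of the 40 members, 8 (20.0%) had a median distance of at most 1 Mb, against 19.9% of all genes and 9.2% of the genes that were never in a LAD. These 8 come from 5 loci (19.2% of 26). A member had a median of 21 other protein-coding start sites within 1 Mb, against 29 for all genes.

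**Figure D1:**
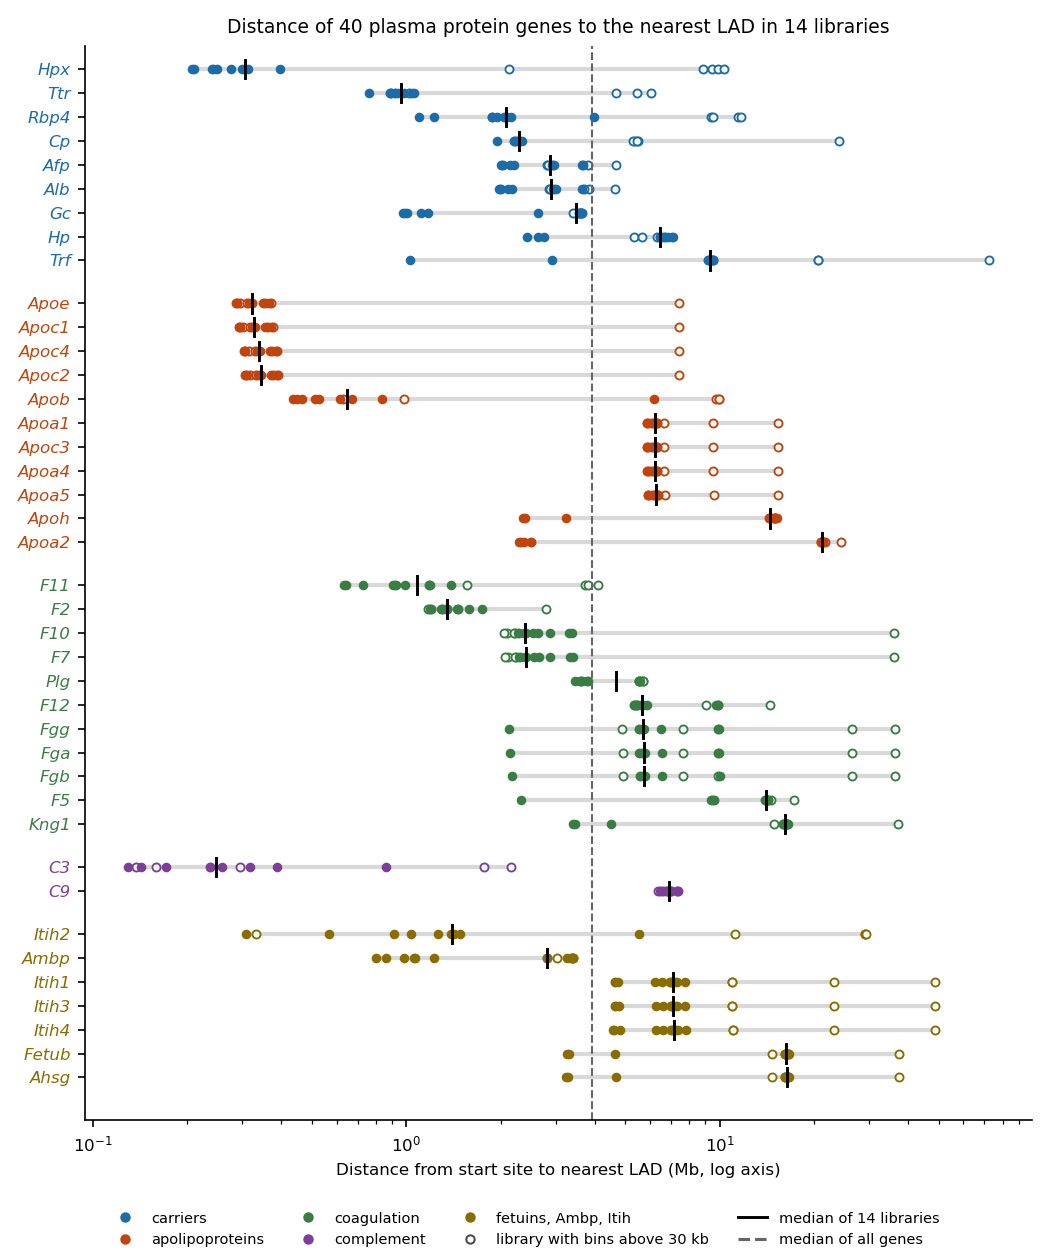
Distance in Mb (log axis) from the start site of each of the 40 genes to the nearest LAD, with 1 point per library and the genes grouped by role; open points are the 5 libraries with bins above 30 kb, black ticks mark the median of 14 libraries and the dashed line the median of all protein-coding genes at 3.93 Mb. C3, Hpx and the Apoe locus sit at the left near 0.3 Mb with single libraries far to the right, and C9 has the narrowest range.

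The libraries themselves differed in ways that touch every distance. They held 86 to 341 LADs covering 335.3 to 663.0 Mb, and the step on which LAD starts lie, called the bin size here, ranged from 4 to 61 kb. In the 5 libraries with bins above 30 kb (NS replicate 1, CT0 replicate 1, CT6 replicate 1 and both CT30 libraries) there were fewer LADs, 86 to 143, than in the other 9. The longest distance of a gene was found in 1 of these 5 libraries for 38 of the 40 members (95%) and for 84% of all genes whose distance varied. The share of a result that goes with bin size was not tested except where a fit with bin size is given.

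In each library the members followed the level of all genes. Their median distance was 14.34 and 3.67 Mb in the NS mice, where that of all genes was 9.88 and 3.06 Mb. At CT0 it was 7.42 and 2.36 Mb (all genes 7.40 and 3.22 Mb), at CT6 5.42 and 3.29 Mb (5.94 and 2.80 Mb), and at CT12 3.51 and 3.41 Mb (3.25 and 3.28 Mb). At CT18 it was 4.05 and 2.39 Mb (4.21 and 2.20 Mb), at CT24 3.05 and 5.50 Mb (3.23 and 4.28 Mb), and at CT30 7.64 and 6.00 Mb (5.58 and 6.49 Mb). Members were farther than all genes in 9 libraries and nearer in 5. The 2 NS mice were 10.67 Mb apart and the 2 CT0 mice 5.06 Mb, while the means of the 6 CTs ranged from 3.22 to 6.82 Mb. Between 1 and 7 members were within 500 kb of a LAD in a library (2.5% to 17.5%), against 6.9% to 22.4% of all genes. The share of all genes includes those inside a LAD, which were 4.02% to 10.42% in single libraries, while no member was inside one. The 2 ranges are therefore not alike in what they count.

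**Figure D2:**
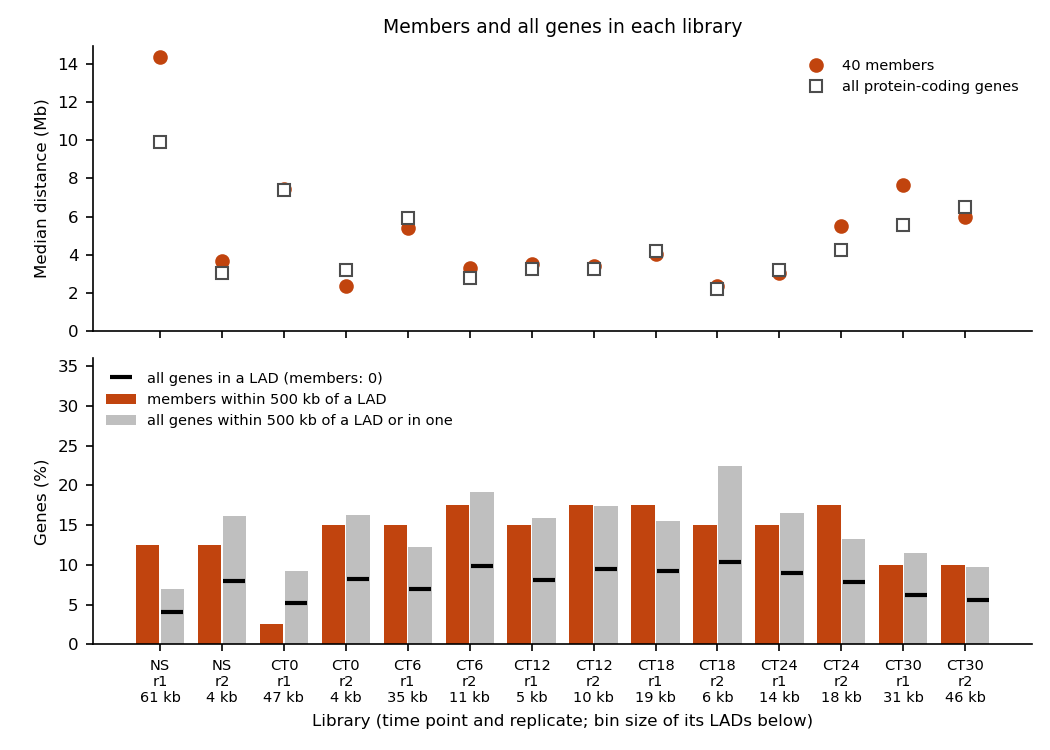
Median distance to the nearest LAD in Mb (upper panel) for the 40 members and for all protein-coding genes, in the 14 libraries with their bin size. The lower panel gives the percentage of each within 500 kb of a LAD or inside one. Black marks give the share of all genes inside a LAD, which is 0 for the members. Both medians are highest in NS replicate 1, at 14.34 and 9.88 Mb.

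Carriers and transporters had a median distance of 2.88 Mb over 9 genes, with a range of gene medians from 0.31 to 9.32 Mb. Hpx, hemopexin, which binds free heme, was the nearest, at a median of 306.1 kb. Its start site lay 9464 and 276 kb from a LAD in the NS mice, 8827 and 312 kb at CT0, 9910 and 242 kb at CT6, 395 and 300 kb at CT12, 207 and 240 kb at CT18, 250 and 210 kb at CT24, and 10306 and 2132 kb at CT30. Thus 9 libraries were at 207 to 395 kb, and the 5 others were the libraries with bins above 30 kb. In the 9 libraries the nearest LAD lay in 1 region, chr7:102522001-105393000, which holds 154 protein-coding genes, of which 126 are olfactory receptors. No LAD was called within it in the 5 others. Both mice were near at CT12, CT18 and CT24 alone, and the F test of limma between the CTs gave an adjusted p of 1.

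Ttr, transthyretin, the carrier of thyroxine and of the retinol-binding protein, lay 5.44 and 0.95 Mb from a LAD in the NS mice and 4.67 and 0.89 Mb at CT0. It lay at 0.89 and 0.92 Mb at CT6, 0.76 and 1.05 Mb at CT12, 0.92 and 0.99 Mb at CT18, 0.90 and 1.06 Mb at CT24, and 6.03 and 1.02 Mb at CT30. In 11 libraries the distance was 0.76 to 1.06 Mb, to a LAD on the low-coordinate side, and the 3 outside that range were replicate 1 of NS, CT0 and CT30. Rbp4, which carries retinol, had a median of 2.08 Mb (range 1.10 to 11.66 Mb), and Cp, the copper-carrying ferroxidase ceruloplasmin, of 2.28 Mb (1.95 to 24.08 Mb).

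Gc, the vitamin D-binding protein, sits between LADs on chromosome 5. It lay 3.57 and 3.57 Mb from the nearest in the NS mice, 3.64 and 1.11 Mb at CT0, 3.60 and 3.61 Mb at CT6, 1.17 and 3.56 Mb at CT12, 0.97 and 1.01 Mb at CT18, 0.99 and 2.63 Mb at CT24, and 3.40 and 3.62 Mb at CT30. Short values of 0.97 to 1.17 Mb occurred in 5 libraries, in which a LAD of 730 to 855 kb had been called at the casein genes. Both CT18 mice were in that set (mean 0.99 ± 0.02 Mb, SD, n = 2) and neither CT6 nor CT30 mouse (3.61 ± 0.01 and 3.51 ± 0.16 Mb, n = 2 each). The F test between the CTs gave p = 0.183 and an adjusted p of 1, and the exact permutation test gave p = 0.1808.

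The casein LAD was also the nearest to Alb, albumin, the most abundant plasma protein, and to Afp, its fetal relative, in those 5 libraries. The union of its calls spans chr5:87548001-88483000 and holds 20 protein-coding genes, 5 of them caseins. Alb had a median of 2.91 Mb (range 1.98 to 4.64 Mb) and Afp of 2.88 Mb (2.01 to 4.67 Mb). In the other 9 libraries the nearest LAD of Alb was farther, at 2.85 to 4.64 Mb, so the albumin locus was among the steadier ones, with a longest distance 2.3 times its shortest. Hp, haptoglobin, which binds free hemoglobin, had a median of 6.45 Mb (2.43 to 7.09 Mb). Trf, transferrin, the iron carrier, had the widest range in Mb of the 40 genes, from 1.03 Mb in CT6 replicate 2 to 72.36 Mb in NS replicate 1, with a median of 9.32 Mb.

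**Figure D3:**
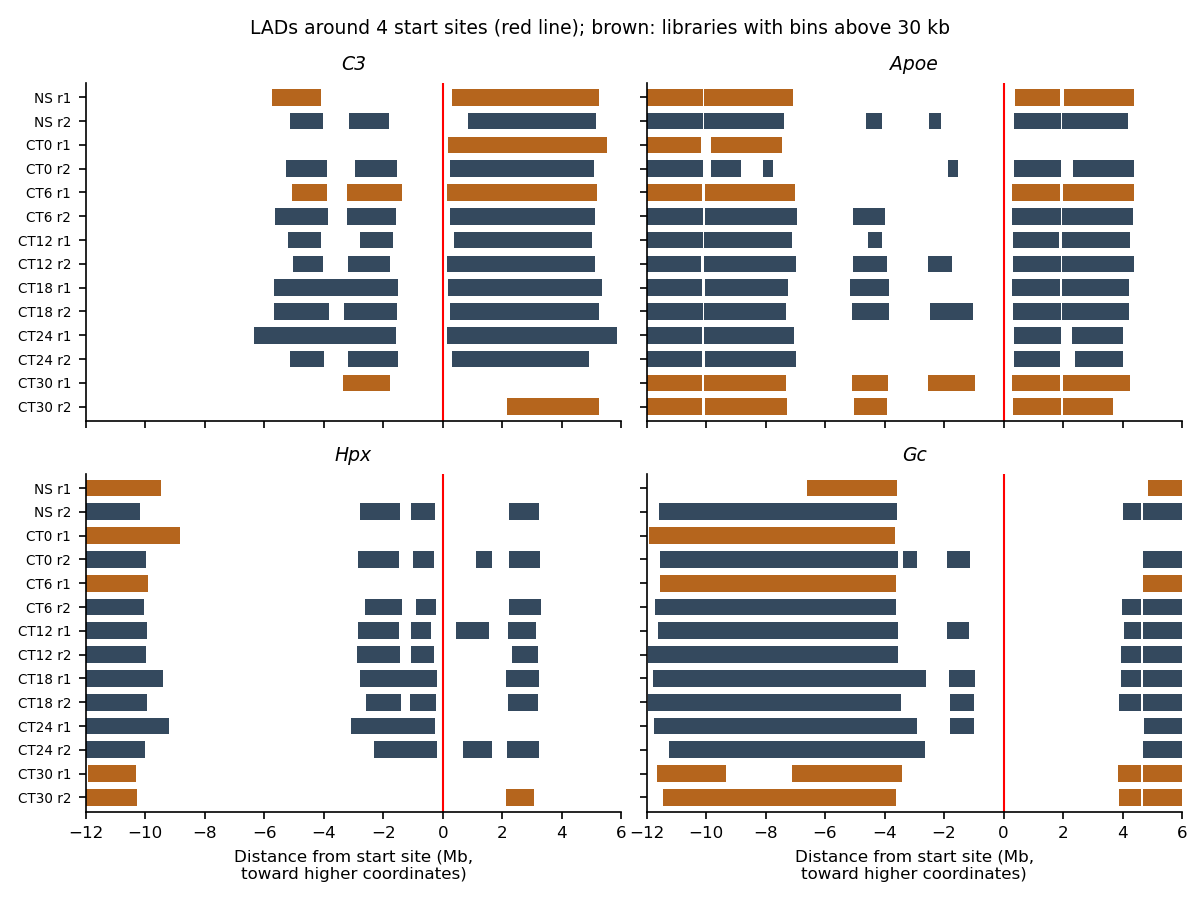
LADs (bars) from 12 Mb below to 6 Mb above the start sites of C3, Apoe, Hpx and Gc in each of the 14 libraries, along chromosome coordinates in Mb from the start site (red line); brown bars are libraries with bins above 30 kb. The start site is free of LADs in each panel, a LAD edge lies 0.29 to 0.37 Mb above Apoe in 13 libraries, and the bar next to C3 is absent in CT30 replicate 1 and starts at 2.16 Mb in CT30 replicate 2.

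Apolipoproteins split into a near and a far set, with 5 of 11 genes at a median of at most 1 Mb and the other 6 beyond 6 Mb. The near set is the Apoe locus (Apoe, Apoc1, Apoc4 and Apoc2, with start sites within 21 kb on chromosome 7) and Apob. Apoe, the ligand by which remnant lipoproteins are taken up, lay 370 and 357 kb from a LAD in the NS mice, 7432 and 365 kb at CT0, 286 and 288 kb at CT6, 316 and 321 kb at CT12, 289 and 323 kb at CT18, 349 and 353 kb at CT24, and 296 and 311 kb at CT30. In 13 libraries the distance was thus 286 to 370 kb, and CT0 replicate 1 stood alone at 7432 kb. The LAD in the 13 libraries lies in chr7:19985001-21620000, which holds 45 protein-coding genes, 31 of them vomeronasal receptors, and it was not called in CT0 replicate 1. Apoc1, which activates lecithin-cholesterol acyltransferase, Apoc2, the cofactor of lipoprotein lipase, and Apoc4 measure their distance to the same LAD edge, from 292 to 376 kb, 307 to 391 kb and 304 to 388 kb in those 13 libraries. They are 1 observation of a LAD and not 4.

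Within the 13 libraries the mice of a time point were close at this locus. They differed by 2 kb at CT6, 5 kb at CT12, 34 kb at CT18, 4 kb at CT24 and 15 kb at CT30, while the highest and the lowest of these 10 libraries, at CT24 and CT6, were 67 kb apart. In the exact permutation test over the 10395 divisions of the 12 CT libraries into 6 pairs, the F ratio of Apoe was 1.22. Its p was 0.002405. This test included CT0 replicate 1 at 7432 kb, whose pair, at 365 kb, was the highest of the other CT values. The p therefore depends on the CT0 pair too. In the 10 libraries without CT0, p was 0.02646 among 945 divisions, an alternative chosen after the values were seen. The exact p adjusted over the 20384 genes so tested was 0.4902, and the F test of limma gave p = 0.261 with an adjusted p of 1. The ordering passed neither threshold. These differences compare with bins of 5 to 46 kb in the 10 libraries.

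Apob, the structural protein of very-low-density and low-density lipoproteins, lay 9.77 and 0.61 Mb from a LAD in the NS mice, 9.93 and 0.84 Mb at CT0, 0.63 and 0.46 Mb at CT6, 0.53 and 0.45 Mb at CT12, 0.51 and 0.67 Mb at CT18, 6.19 and 0.44 Mb at CT24, and 9.94 and 0.99 Mb at CT30. It was below 1 Mb in 10 libraries, where the LAD lies in chr12:5428001-7542000, a stretch with 0 protein-coding start sites. The 4 libraries beyond 6 Mb were replicate 1 of NS, CT0, CT24 and CT30, and replicate 2 of each of these groups was below 1 Mb.

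The far apolipoproteins were Apoa1, Apoc3, Apoa4 and Apoa5, Apoh and Apoa2. Apoa1, the main protein of high-density lipoprotein, and its neighbours Apoc3, an inhibitor of triglyceride clearance, Apoa4 and Apoa5 had medians of 6.21 to 6.25 Mb. Their nearest LAD lay in chr9:35435001-40373000 in 13 of 14 libraries, 12 of which shared a base pair there, a region in which 95 of 140 protein-coding genes are olfactory receptors. The exception was NS replicate 1, at 15.36 Mb for Apoa1, and CT30 replicate 1 was at 9.52 Mb, with the other 12 libraries from 5.86 to 6.64 Mb. Apoh, beta-2-glycoprotein I, had a median of 14.53 Mb and came to 2.35 to 3.23 Mb in 3 libraries.

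Apoa2, the second protein of high-density lipoprotein, was the farthest of the 40 genes, with a median of 21.18 Mb. It lay 21.29 and 2.49 Mb from a LAD in the NS mice, 21.01 and 2.38 Mb at CT0, 21.11 and 21.35 Mb at CT6, 2.50 and 2.32 Mb at CT12, 21.26 and 2.29 Mb at CT18, 21.33 and 21.39 Mb at CT24, and 24.38 and 21.68 Mb at CT30. The values form 2 sets, and the 5 libraries near 2.3 to 2.5 Mb are those with bins of 10 kb or less. In these a LAD of 620 to 850 kb was called on the high-coordinate side, at about chr1:173514001-174420000. Both CT12 mice were in the near set and both mice of CT6, CT24 and CT30 in the far one, and limma's F test gave an adjusted p of 1 (exact permutation p = 0.242).

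Coagulation, kinin and fibrinolysis factors had a median of 5.66 Mb over 11 genes, and 0 of the 11 had a median below 1 Mb. F11, a protease of the intrinsic pathway, was the nearest, at 1.09 Mb (0.63 to 4.09 Mb). F2, prothrombin, followed at 1.35 Mb and was steady: 2.79 and 1.30 Mb in the NS mice, and 1.18 to 1.74 Mb in the 12 CT libraries. The neighbour of F2 is chr2:85248001-90458000, where 227 of 234 protein-coding genes are olfactory receptors, and it was the nearest in 13 libraries. For F2 the F test of limma gave p = 0.8252 with an adjusted p of 1, and the exact permutation test p = 0.02665 (0.03915 without CT0, adjusted p over all genes 0.8123). Its means were 1.19 ± 0.02 Mb at CT30 and 1.60 ± 0.21 Mb at CT24 (SD, n = 2).

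F7 and F10, which meet in the extrinsic pathway and sit side by side on chromosome 8, lay at 2.41 and 2.39 Mb. F7 was at 35.96 Mb in NS replicate 1 and at 2.06 to 3.39 Mb in the 13 others, where the LAD in chr8:15088001-17822000 holds the start site of 1 protein-coding gene. Plg, plasminogen, was at 4.67 Mb (3.46 to 5.70 Mb) and F12, which starts contact activation, at 5.66 Mb (5.33 to 14.46 Mb). Fgg, Fga and Fgb, the fibrinogen chains on chromosome 3, shared 1 locus at 5.72 to 5.76 Mb. Its extremes were the CT0 mice, at 36.15 Mb in replicate 1 and 2.13 Mb in replicate 2 for Fgg. F5, the cofactor of factor Xa, was at 14.11 Mb (2.32 to 17.30 Mb).

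Kng1, the kininogen from which bradykinin is released, shares a locus on chromosome 16 with Ahsg and Fetub and was among the 4 farthest genes. It lay 37.09 and 16.36 Mb from a LAD in the NS mice, 14.88 and 16.36 Mb at CT0, 16.35 and 3.44 Mb at CT6, 16.36 and 4.50 Mb at CT12, 16.35 and 3.40 Mb at CT18, 16.04 and 16.51 Mb at CT24, and 15.97 and 16.00 Mb at CT30. Values of 14.88 Mb or more occurred in 11 libraries, and the 3 near ones were replicate 2 of CT6, CT12 and CT18.

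Of the complement genes, C3, the protein on which the complement pathways converge, was the nearest of all 40 genes to a LAD and C9, a subunit of the membrane attack pore, the steadiest. C3 (ENSMUSG00000024164.15, chr17:57203970-57228136) lay 295 and 860 kb from a LAD in the NS mice, 159 and 236 kb at CT0, 137 and 236 kb at CT6, 387 and 142 kb at CT12, 171 and 258 kb at CT18, 130 and 318 kb at CT24, and 1769 and 2158 kb at CT30. Both CT30 mice lay above all 12 other libraries, at a mean of 1.96 ± 0.27 Mb (SD, n = 2) against 0.19 to 0.26 Mb at the other CTs. The nearest LAD in 13 libraries lies in chr17:57358001-63098000, which holds 7 protein-coding genes. It began at 59386001 in CT30 replicate 2, and in CT30 replicate 1 the nearest LAD was 1 on the other side of the gene, at chr17:54711988-55459000. C9 lay 6.34 to 7.34 Mb from a LAD in all 14 libraries, always in chr15:12784001-25427000, with a median of 6.88 Mb and a longest distance 1.2 times the shortest.

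Between the CTs, C3 had the smallest p of the 40 members. The moderated F test of limma on log2(distance in kb + 10) gave F = 7.33, p = 0.006956 and an adjusted p of 0.4125 over 20625 genes, and the exact permutation test gave p = 0.08802. C3 is therefore not called. Its CT30 values lay above those of the other CTs, as did those of Cp, F5 and Apoa2. The share of all genes with that pattern was not counted. Both CT30 libraries have bins above 30 kb and coverage of 392.4 and 405.4 Mb, the lowest of the CT libraries. NS replicate 1, CT0 replicate 1 and CT6 replicate 1 have bins above 30 kb too and lay 295, 159 and 137 kb from the C3 LAD. Whether the C3 values at CT30 go with bin size, coverage or time was not tested.

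The fetuins, Ambp and inter-alpha-trypsin inhibitor heavy chains had a median of 7.11 Mb over 7 genes. Itih2, a heavy chain that is linked to hyaluronan, was the nearest and the most variable of the 40 genes by ratio, with a longest distance 95 times its shortest. It lay 29.15 and 1.39 Mb from a LAD in the NS mice, 29.21 and 0.92 Mb at CT0, 0.33 and 1.42 Mb at CT6, 1.04 and 1.48 Mb at CT12, 0.31 and 1.26 Mb at CT18, 0.57 and 5.53 Mb at CT24, and 11.17 and 29.29 Mb at CT30. The LAD at chr2:7280001-9823000 was the nearest in 9 libraries, at 0.31 to 1.48 Mb, and was not the nearest in the NS and CT0 replicate 1 libraries, CT24 replicate 2 and both CT30 libraries. The F test of limma between the CTs gave an adjusted p of 1 and the exact permutation test p = 0.265.

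Ambp, the precursor of alpha-1-microglobulin and bikunin, had a median of 2.81 Mb (0.80 to 3.41 Mb), always on the high-coordinate side. Itih1, Itih3 and Itih4 share a locus on chromosome 14 at 7.09 to 7.15 Mb, with CT0 replicate 1 at 48.77 Mb for Itih1. Ahsg, fetuin-A, an inhibitor of mineral deposition, and Fetub, fetuin-B, were at 16.36 and 16.34 Mb and followed Kng1. For Ahsg the NS mice were at 37.25 and 16.53 Mb, CT0 at 14.71 and 16.53 Mb, CT6 at 16.52 and 3.28 Mb, CT12 at 16.52 and 4.67 Mb, CT18 at 16.51 and 3.24 Mb, CT24 at 16.21 and 16.67 Mb and CT30 at 16.14 and 16.16 Mb. Fetub, with its start site 27 kb from that of Ahsg, had the same nearest LAD in each library, from 3.26 to 37.23 Mb.

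None of the 40 distances passed the test between the CTs when all genes were tested. The F test called 153 of 20625 genes at an adjusted p below 0.05 (0.742%) and 0 of the 40 members, and the smallest adjusted p of a member was 0.4125. At an unadjusted p below 0.05 it found 893 genes (4.33%) and 1 member, C3. The exact permutation test found 1119 of 20384 genes (5.49%) and 5 members at an unadjusted p below 0.05, which are the 4 genes of the Apoe locus and F2, and 0 genes after adjustment. There were 2 mice per time point, and some distances jump between a near and a far LAD in single libraries. The SD between replicates, in log2, ranged from 0.07 for C9 to 2.42 for Hpx. Which shifts could be detected for the members was not tested, so 0 calls do not show that their distances are constant.

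Entrainment was examined by CT0 against NS, and no member was called there either. The contrast called 1 of 20625 genes at an adjusted p below 0.05 (0.00485%) and 0 members, the smallest adjusted p of a member being 0.965. At an unadjusted p below 0.05 it found 725 genes (3.52%) and 2 members, the neighbours F7 and F10. The log2 difference of F7, CT0 minus NS, was -2.15 ± 0.89 (SE, adjusted p = 0.965), with 2.11 and 2.88 Mb at CT0 against 35.96 and 3.33 Mb in NS, so the difference rests on NS replicate 1. That of Apoe was 2.16 ± 1.09 (SE, adjusted p = 0.965) and rests on CT0 replicate 1, at 7432 kb against 365 kb in replicate 2.

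Single libraries decide what these tests find. Without CT0 replicate 2, the lone CT0 library is assumed to vary like the other groups, and the 4 genes of the Apoe locus were called between the CTs (adjusted p 0.0001957 to 0.0002148) and for CT0 against NS (3.222e-05 to 3.458e-05, farther at CT0 by log2 differences of 4.23 to 4.32). In these fits 739 (3.58%) and 663 (3.22%) of 20614 genes were called. Without NS replicate 2 on the same assumption, 8 members were called for CT0 against NS: F2, Cp, F7, F10, Apoa1, Apoc3, Apoa4 and Apoa5, with adjusted p of 0.0002975 to 0.04109. They form 4 loci, and 1358 of 20623 genes (6.58%) were called in that fit. Each of the 8 was nearer to a LAD at CT0 than in NS replicate 1, by log2 differences of -3.87 to -0.99. The libraries left in these fits, CT0 replicate 1 and NS replicate 1, have bins of 47 and 61 kb.

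**Figure D4:**
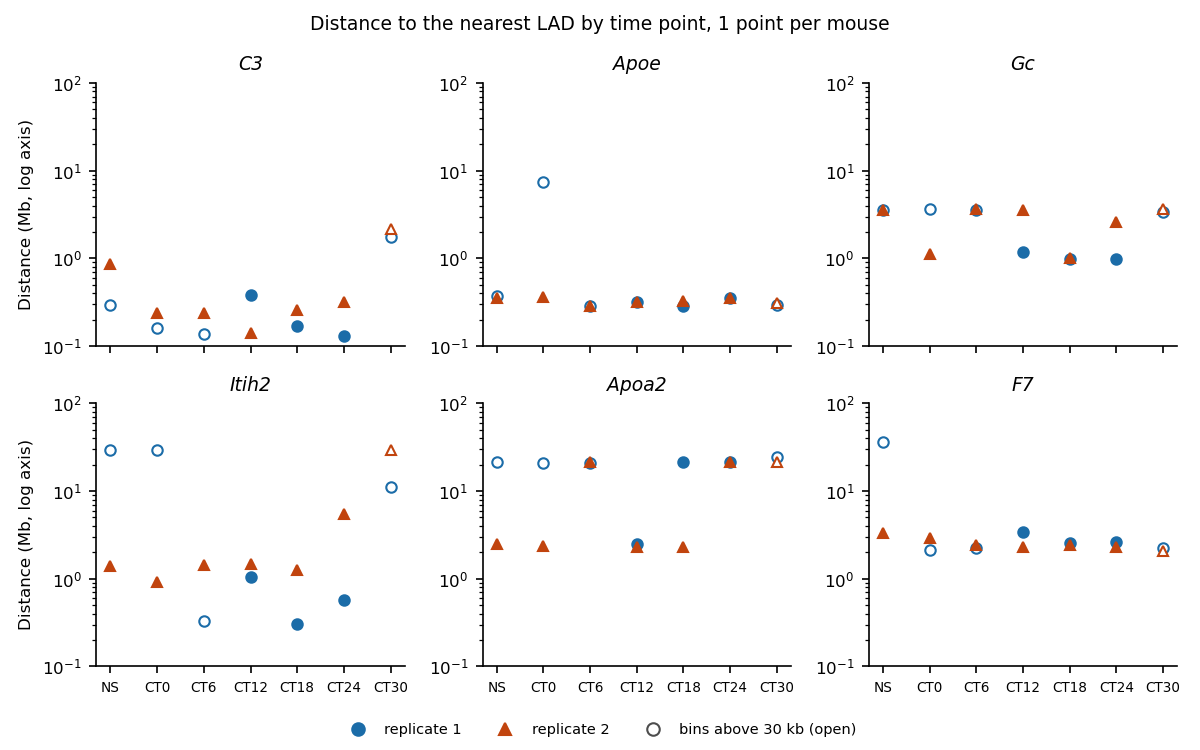
Distance in Mb (log axis) from the start site to the nearest LAD for C3, Apoe, Gc, Itih2, Apoa2 and F7 in NS and 6 CTs, with 1 point per mouse (circle, replicate 1; triangle, replicate 2; open, bins above 30 kb). C3 is highest in both CT30 mice, Apoe is at 0.29 to 0.37 Mb in all but 1 CT0 mouse, and Itih2, Apoa2 and F7 have mice of the same group more than 10 Mb apart.

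The nearest LADs of different mice shared a base pair as often as for all genes at a limit of 13 libraries, and less often at 14. All genes here include those inside a LAD. The nearest LADs of at least 13 libraries shared a base pair for 9 of the 40 members (22.5%), which come from 5 of the 26 loci, and for 22.5% of the 20807 genes with a distance in each library. For C9 the nearest LADs of all 14 did (2.5% of members, 11.3% of all genes). The regions given above, each a union of overlapping calls of the 14 libraries in which single calls need not overlap, differed in what they hold. The commonest nearest regions of Apoe, Hpx, F2 and Apoa1 hold receptor clusters. Those of Apob, Ttr, Itih2, Cp, F7, Plg, Itih1 and Ahsg hold 0 or 1 protein-coding start site. That of Ttr on chromosome 18 holds 1 cadherin gene. Such a region need not be close, as median distances were 6.21 Mb for Apoa1, 4.67 Mb for Plg, 7.09 Mb for Itih1 and 16.36 Mb for Ahsg. The region of Plg was the nearest in 7 of the 14 libraries. Regions of other members are of neither kind, such as those of C3, F5 and Fgg, with 7, 8 and 11 protein-coding genes. The share of all genes with regions of either kind was not counted.

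Other secreted liver genes, listed apart from the members, were seldom in LADs as well. Of 49 genes found of 50 listed, which include further complement, acute-phase and hormone-like genes, 1 (2.0%) had its start site in a LAD in at least 1 library. It was Pros1, the anticoagulant protein S, on chromosome 16, in a LAD in 7 libraries and 110 to 3933 kb from one in the 7 others. The median distance of the 49 was 2.70 Mb and 8 (16.3%) had a median of at most 1 Mb. Of 15 liver transcription factors, 0 were in a LAD in any library, and their median distance was 7.24 Mb.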

How the data were processed

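LADs were read from the deposited LMNB1 ChIP files of 14 libraries, which give start and end in mm10 with no score, signal or count, so read depth is unknown and no counting interval could be had. Per the labels and the study's methods, the authors mapped reads with Bowtie (listed as Bowtie2 2.25.0 in the submitters' notes), removed duplicates with Picard, set each ChIP and its input to equal depth by chromosome, and ran the domain caller EDD per mouse at settings averaged over repeats. Inputs and RNA-seq were not analysed here.

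Replicate numbers are those of the sample titles, which differ from some deposited file labels. Start sites, the 5′ ends of genes, came from GENCODE vM21 (GRCm38.p6) and promoter windows from RefSeq. Distance runs to the nearest LAD edge and is 0 inside. Log2(distance in kb + 10) was fitted with limma 3.58.1 in R 4.3.3 over 7 groups, with Benjamini-Hochberg adjustment. Of 21938 genes, 1131 without a LAD on their chromosome in some library and 182 with 1 value in all libraries were left out. Exact permutation tests used the F ratio in Python 3.11.15. Scripts were tested on simulated data. P-values cover the spread between the libraries of a group, 1 per mouse, in which mouse, library and LAD calling cannot be told apart.

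The members and lists were chosen with earlier results of these data known. Values in every library are given for the 8 members with the shortest and the 4 with the longest median distance and the 4 with the smallest p of the F test; genes of 1 locus are described together, and F2 and F7 were added after their values were seen. Alternatives were the pseudocount, the LAD size, the gene body, a replicate block, bin size as a covariate, the groups in the fit, unions and intersects, and leaving out libraries.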

Additional observations from a re-analysis of the deposited data

How the results depend on the processing

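The count of 0 member start sites in LADs held under every alternative run. The median distance of the members, 5.16 Mb, was 3.06 Mb with the union and 6.30 Mb with the intersect of both mice, 3.67 Mb in replicate 2 and 6.28 Mb in replicate 1, and that of all genes, 3.93 Mb, was 2.92, 6.23, 3.35 and 5.22 Mb. The mice of a group differed by a mean SD of 2.39 Mb over 7 groups and of 1.53 Mb over the 6 CTs. Members called between the CTs numbered 0 throughout, except for 0 to 4 with 1 library left out, and for CT0 against NS 0 throughout, except for 0 to 8. Over all genes, 153 between the CTs became 294 with LADs of at least 1 Mb, 424 without NS replicate 1 and CT0 replicate 1 together, a choice made after seeing the data, and 58 to 739 with 1 library left out. For CT0 against NS, 1 gene (Vmn2r46) became 2 with a pseudocount of 1 kb, 0 with 100 kb, 0 with the NS and CT0 libraries alone, 90 with LADs of at least 1 Mb, 70 without both coarse libraries and 1 to 1358 with 1 library left out. With bin size as a covariate, 222 and 1 genes and 0 members were called. The smallest adjusted p of a member between the CTs was then 0.09741, and 0.07041 with LADs of at least 1 Mb, against 0.4125 in the main fit. At an unadjusted p below 0.05 the F test found 5 members and 2220 genes with bin size. It found 7 members and 1880 genes with LADs of at least 1 Mb, against 1 and 893 in the main fit. For CT0 against NS, 7 members and 5 members were below 0.05 in these fits, against 2. The cause was not tested.

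Replicate numbers were checked for pairing by the correlation of deviations from the group means. Over 21 pairs of groups it ranged from -0.116 to 0.52 over all genes (median 0.04, 7 above 0.1) and from -0.321 to 0.499 over the members (median 0.203, 12 above 0.1). As not every pair exceeded 0.1, the numbers were not taken as pairs. With a replicate block, 109 genes and 0 members were called between the CTs and 1 gene and 0 members for CT0 against NS.

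The median distance of a member moved by over 1.5 times for 9 of the 40 with the intersect, 5 with the union, 4 with LADs of at least 1 Mb, 5 in replicate 1, 1 in replicate 2, 0 with the gene body and 0 with any 1 library left out. Apoa2 was at 2.49 Mb, Gc at 1.17 Mb and Ambp at 1.07 Mb with the union, and Apob at 9.94 Mb, Hpx at 9.98 Mb, Rbp4 at 10.69 Mb and Itih2 at 5.55 Mb with the intersect. With LADs of at least 1 Mb, Hpx was at 1.44 Mb. Of 840 such comparisons, 16 moved beyond the spread between replicates, which is wide for these genes. Most of the 840 leave out 1 library, which can hardly move a median over the libraries. The count of 16 therefore does not show that the medians are stable, and the counts for each alternative above are the ones to read.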
